A study of Homo sapiens with 24 samples.

Results

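The collagen genes were taken as every gene in the count table whose symbol had the form COL, number, A, number, and 44 of 28307 genes matched. Of these, 30 had at least 10 counts in at least 3 of the 24 libraries and were kept. In SUM159 30 passed this minimum within the line, in SW620 13 did, and those 13 passed in both lines. The 14 genes not kept were COL1A2, COL4A3, COL6A5, COL6A6, COL8A2, COL9A1, COL9A2, COL10A1, COL14A1, COL19A1, COL20A1, COL22A1, COL23A1 and COL25A1. SUM159 cells derive from a human breast cancer and SW620 cells from a human colon cancer. Cells of each line were grown for 30 h with nifuroxazide (NIF, a nitrofuran antibiotic) or with DMSO, the solvent used as control, and were afterwards sorted by ALDEFLUOR into ALDHbr cells, with high aldehyde dehydrogenase activity, and ALDHneg cells, with low activity. This gave 8 groups of 3 libraries, one per independent experiment: in each line, ALDHbr cells under DMSO, ALDHbr cells under NIF, ALDHneg cells under DMSO and ALDHneg cells under NIF. The sort followed the treatment, so each population is the cells that carried that activity after 30 h, and in these bulk RNA libraries fewer cells of a kind and less RNA per cell cannot be told apart.

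Collagens are secreted or membrane-bound proteins built of chains wound into a triple helix, and each gene codes for a chain. Fibrillar collagens form the tensile fibrils of connective tissue, type IV collagen forms the sheet-like network of basement membranes, type VI forms beaded filaments around cells, and types XIII and XVII span the plasma membrane. Type IV genes lie in head-to-head pairs whose partners are read away from each other from adjoining starts, and their products combine into the same trimers (COL4A1 with COL4A2, and COL4A5 with COL4A6, the latter in specialised epithelial membranes).

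Total counts per library ran from 30253187 to 43127948. The sort was reflected in ALDH1A1, a main aldehyde dehydrogenase read by ALDEFLUOR. In SUM159 it ran from 97.3 to 206 CPM (counts scaled to library size) in ALDHbr libraries and from 0.281 to 0.591 CPM in ALDHneg libraries. In SW620 it ran from 980 to 1440 CPM in ALDHbr and from 570 to 976 CPM in ALDHneg libraries, so the SW620 populations lay much closer together. The line labels were checked with 10 colon epithelial and 10 mesenchymal marker genes. The colon epithelial markers summed to 215 to 375 CPM in SUM159 and to 9290 to 11600 CPM in SW620, and the mesenchymal markers to 5900 to 7750 CPM in SUM159 and to 378 to 658 CPM in SW620. Of the mesenchymal markers 5 stayed under 10 counts in every SW620 library, and of the colon epithelial markers 4 did in every SUM159 library.

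The upstream sequences of type IV genes are shown because the results below turn on how the partners of each pair moved, and that of COL7A1 because it is the gene with the next largest NIF response after COL4A1 in SW620. They come from RefSeq (GRCh38.p14), stop at the base before the gene's start and touch no annotated gene. COL4A1 (chr13:110148963-110307157) and COL4A2 (chr13:110307284-110513209) are separated by 126 bases, printed whole and read on the COL4A2 strand (chr13:110307158-110307283). COL4A6 (chrX:108155614-108439458) and COL4A5 (chrX:108439838-108697545) are separated by 379 bases, and the 250 bases before each start are printed (chrX:108439588-108439837 on the plus strand and chrX:108439459-108439708 on the minus strand), so that 121 bases appear in both, as reverse complements. The 250 bases before COL7A1 are chr3:48595330-48595579 on the minus strand. Capitals mark matches, on either strand, to the GC box (GGGCGG) and to the CCAAT box.
COL4A1 to COL4A2: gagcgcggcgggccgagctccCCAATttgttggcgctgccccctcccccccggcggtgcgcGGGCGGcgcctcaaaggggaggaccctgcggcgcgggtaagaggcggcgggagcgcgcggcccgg
COL4A5: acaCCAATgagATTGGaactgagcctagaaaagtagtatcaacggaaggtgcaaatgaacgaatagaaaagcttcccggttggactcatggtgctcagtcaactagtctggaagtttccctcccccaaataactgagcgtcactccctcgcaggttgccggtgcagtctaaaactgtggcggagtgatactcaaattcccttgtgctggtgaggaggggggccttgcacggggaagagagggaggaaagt
COL4A6: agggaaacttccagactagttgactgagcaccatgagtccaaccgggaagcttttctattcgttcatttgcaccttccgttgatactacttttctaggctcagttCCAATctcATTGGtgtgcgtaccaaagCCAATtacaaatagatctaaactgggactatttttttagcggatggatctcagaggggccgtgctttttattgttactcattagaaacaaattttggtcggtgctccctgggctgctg
COL7A1: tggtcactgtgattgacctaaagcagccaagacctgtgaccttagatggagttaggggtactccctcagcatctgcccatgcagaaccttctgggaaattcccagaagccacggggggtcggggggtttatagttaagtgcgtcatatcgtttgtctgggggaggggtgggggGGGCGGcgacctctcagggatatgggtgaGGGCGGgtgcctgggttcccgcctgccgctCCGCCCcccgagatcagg

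The COL4A1 to COL4A2 stretch had 80.2% G and C and held 1 GC box and 1 CCAAT box. The stretches before COL4A5 (51.2% G and C) and COL4A6 (44%) held no GC box, and held 2 and 3 CCAAT boxes, of which 2 lie in the shared bases. The COL7A1 stretch held 3 GC boxes and no CCAAT box. Of 35116 RefSeq promoters, 34.6% held a GC box and 21.1% a CCAAT box within 126 bases, and 42.6% and 32% did within 250 bases. TGACTCA (the AP-1 site) and TTCCNGGAA (a STAT site) were also searched on both strands and matched in none of the printed stretches. Within 250 bases they were found in 4.2% and 0.968% of all promoters. Only these exact letters were searched. The COL7A1 stretch holds TTCTGGGAA and its reverse complement TTCCCAGAA, each 1 letter away from TTCCNGGAA. Other looser forms of either site may be present in the printed stretches, and their share over all promoters was not counted. No matches of different motifs overlapped. RefSeq starts were at hand for 23 of the 30 kept genes, and another start is listed for COL4A6, downstream of the one used here.

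The collagen genes kept in SW620 were all kept in SUM159 as well, and the lines differed in their levels (the heat map of levels by library). In SUM159 the collagen genes together took 0.303% to 0.397% of all counts, and in SW620 0.0443% to 0.0743%. The test of line fitted all 24 libraries, over the mean of the 4 groups of each line, by edgeR's quasi-likelihood test with a Benjamini-Hochberg adjusted p under 0.05. By this test 28 of the 30 genes were higher in SUM159, where 47.5% of all genes tested were, and 2 were higher in SW620, where 43% were. A gene kept in SUM159 alone had to differ, so the 13 genes kept in both lines are the fairer count, and of these all but COL17A1 and COL9A3 were higher in SUM159.

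**Figure D1:**
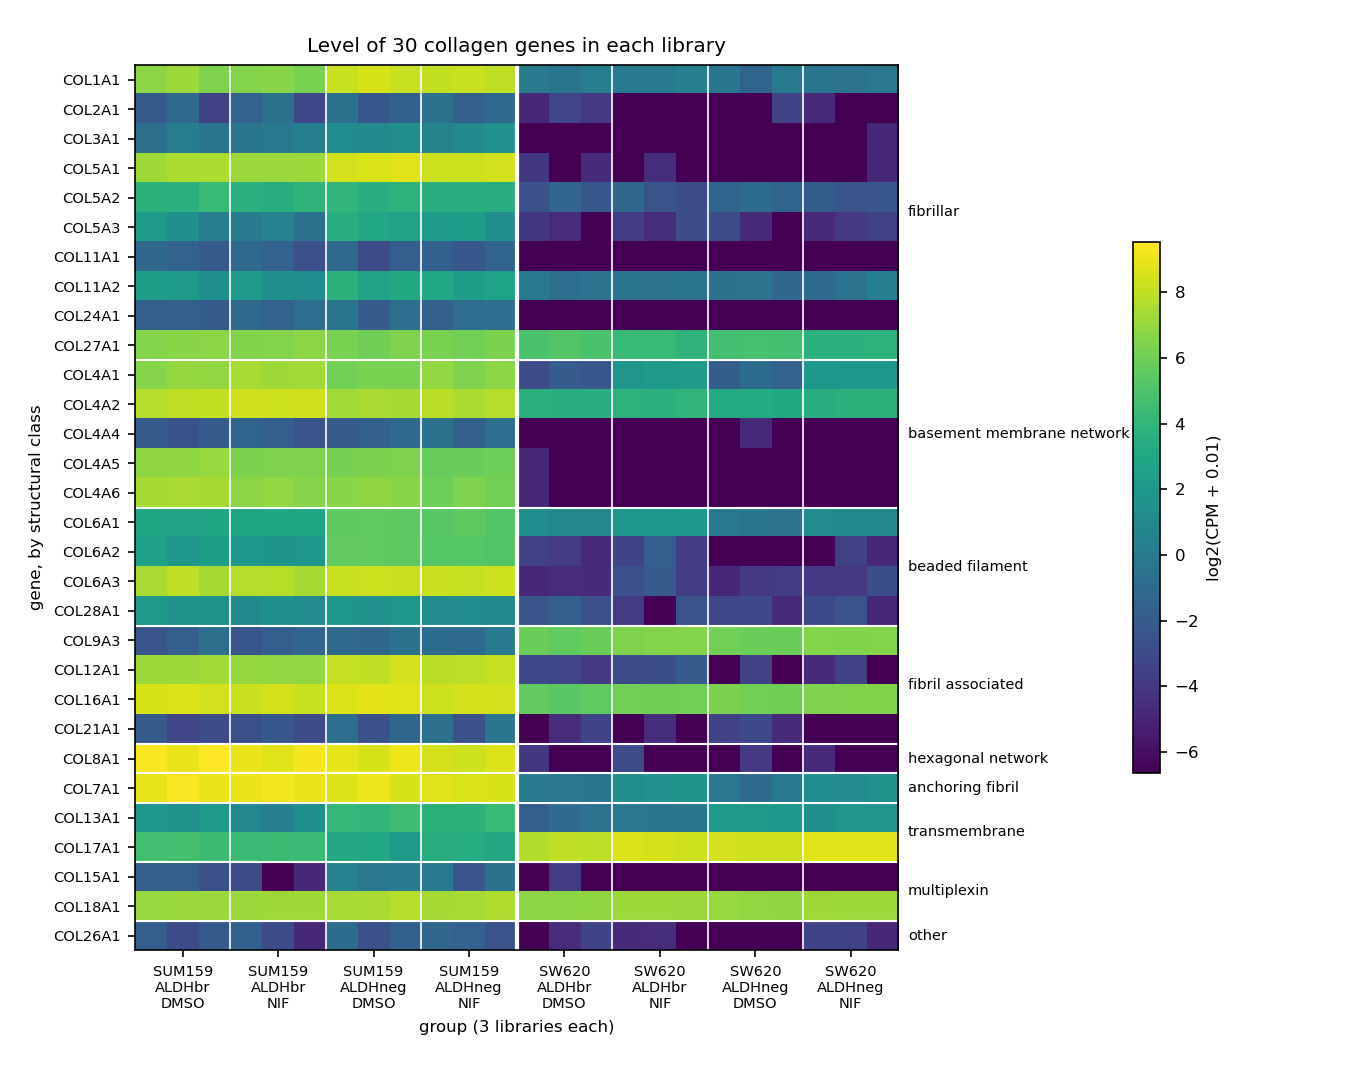
Level of the 30 kept collagen genes (rows, grouped by structural class) in the 24 libraries (columns, 3 to a group), as log2 of CPM plus 0.01. The left 4 groups (SUM159) are bright in most rows, and in the right 4 groups (SW620) COL17A1, COL18A1, COL9A3, COL16A1 and COL27A1 carry most of the signal.

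SUM159 expressed genes of every structural class. Per kilobase of the MANE Select transcript (the reference transcript chosen for each gene), which allows genes of different length to be compared, the highest mean over the line was that of COL8A1, a chain of the hexagonal network of type VIII collagen, at 92.4 ± 23.9 CPM per kb (mean ± SD, n = 12). It was followed by COL16A1, a fibril-associated collagen, at 67.8 ± 9.48 CPM per kb and by COL7A1, the anchoring fibril collagen that ties epithelial basement membrane to the tissue beneath, at 53.7 ± 10.8 CPM per kb. Of the other genes among the 6 with the highest CPM in this line, COL4A2 stood at 36.6 ± 9.60 CPM per kb, COL5A1, which regulates fibril diameter, at 30.5 ± 13.4 CPM per kb, and COL6A3 of the beaded filaments at 23.9 ± 5.76 CPM per kb. Apart from COL8A1, which was highest in each of the 4 groups, the order changed with the group and the spreads overlap: COL7A1 stood at 60.5 and COL16A1 at 58.5 CPM per kb in ALDHbr cells under NIF, and COL1A1 at 53.3 and COL7A1 at 48.1 CPM per kb in ALDHneg cells under DMSO. The order of COL4A2, COL5A1 and COL6A3 is not resolved either. COL1A1, the major chain of the most abundant fibril, stood at 33.4 ± 17.8 CPM per kb with 3172 to 12555 counts per SUM159 library, whereas its usual partner COL1A2 had 1 to 8 counts and was not kept. The SDs over the 12 libraries of a line include differences between its 4 groups. COL1A1 stood at 18.7 (DMSO) and 15.4 (NIF) CPM per kb in ALDHbr cells, and at 53.3 and 45.9 in ALDHneg cells.

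In SW620, COL17A1, the transmembrane collagen of hemidesmosomes, stood at 60.5 ± 13.7 CPM per kb (n = 12) and made up 51.5% of the summed collagen CPM. COL9A3, a chain of fibril-associated type IX collagen, stood at 30.1 ± 6.74 CPM per kb, and COL18A1, the basement membrane collagen whose C-terminal fragment is endostatin, at 24.05 ± 2.90 CPM per kb. COL16A1 stood at 12.6 ± 2.95, COL27A1, a fibrillar collagen, at 2.87 ± 1.02 and COL4A2 at 1.89 ± 0.289 CPM per kb. The other kept genes were under 1 CPM per kb on average.

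Pooled over 12 libraries a line, COL17A1 was 22.1-fold higher in SW620 (95% counting interval 21.5 to 22.6) and COL9A3 161-fold higher (141 to 186). COL18A1 was the gene closest to equal, 1.25-fold higher in SUM159 (1.23 to 1.26). At the other end, COL8A1 had 230624 counts in SUM159 and 9 in SW620, COL5A1 116983 and 5, COL4A6 49973 and 1, and COL4A5 38151 and 1. Both partners of the COL4A5 and COL4A6 pair were thus near zero in SW620, with a ratio of 35200 for COL4A5 (6310 to 1390000) and 46100 for COL4A6 (8270 to 1820000). COL24A1 and COL11A1, both fibrillar, had no count in SW620. Taking 3 counts over the 12 SW620 libraries as the floor gave folds of 60.8 for COL24A1 and 42.4 for COL11A1. The lower limits of the exact 2-sided 95% counting interval of the ratio were 49 and 34. These intervals and floors cover counting error only, and line, tissue of origin and culture history cannot be told apart.

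**Figure D2:**
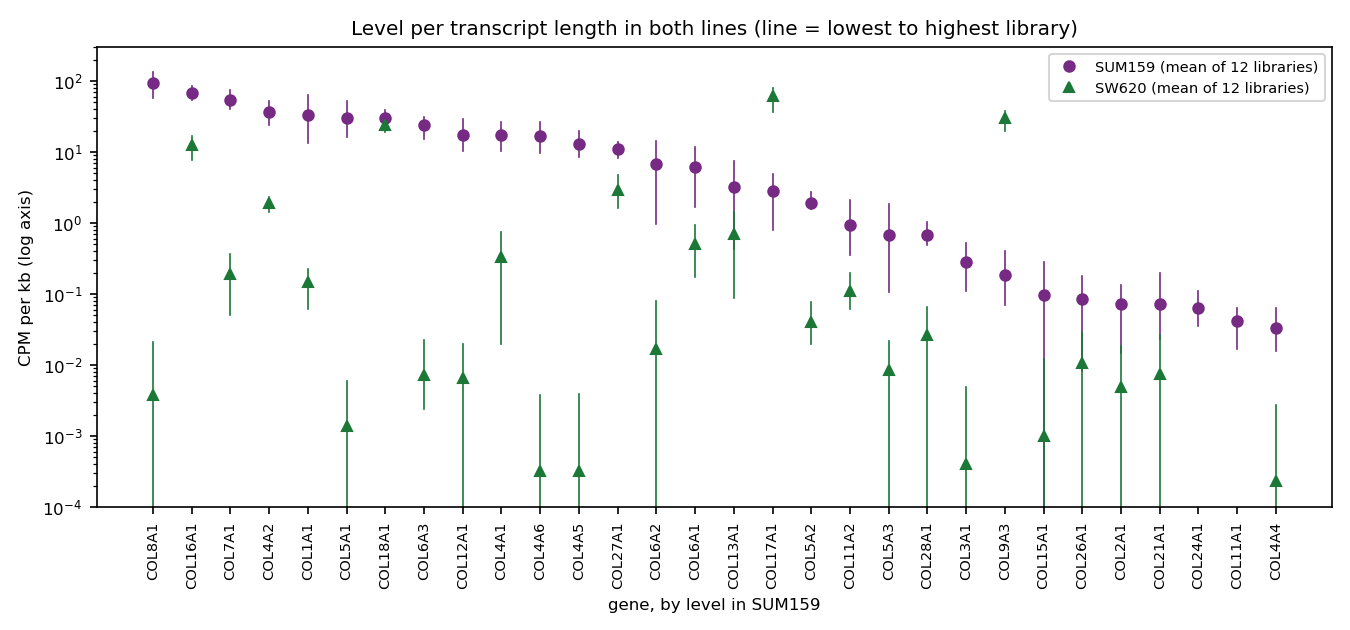
Mean level of each kept collagen gene in CPM per kilobase of transcript (log axis), SUM159 as circles and SW620 as triangles, with a line from the lowest to the highest of 12 libraries (lines that reach the lower edge include libraries with no count, and COL24A1 and COL11A1 had no SW620 count). COL17A1 and COL9A3 are the genes whose triangle lies above the circle.

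NIF was compared with DMSO in each population to ask how collagen expression responds to the drug. In SUM159 ALDHbr cells the type IV pairs moved in opposite directions: COL4A1 and COL4A2 rose, and COL4A5 and COL4A6 fell. COL4A1 ran at 97, 126 and 122 CPM in the DMSO libraries and 175, 149 and 157 CPM under NIF. Its partner COL4A2 ran at 213, 256 and 264 CPM under DMSO and 331, 310 and 326 CPM under NIF. All NIF libraries lay above all DMSO libraries for both genes.

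COL4A5 ran at 114, 116 and 129 CPM under DMSO and 82.7, 83.8 and 84.9 CPM under NIF. COL4A6 ran at 162, 178 and 163 CPM under DMSO and 105, 120 and 94.9 CPM under NIF. For both, all NIF libraries lay below all DMSO libraries. The log2 fold change was 0.47 ± 0.12 (SE) for COL4A1 (adjusted p = 0.0483, edgeR quasi-likelihood test) and 0.39 ± 0.09 for COL4A2 (adjusted p = 0.0289). COL4A5 fell by 0.52 on the log2 scale (SE 0.07, adjusted p = 0.000418, edgeR) and COL4A6 by 0.66 (SE 0.1, adjusted p = 0.0018, edgeR).

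By edgeR without a replicate block no other collagen gene was called. Of 30 tested, 2 rose, where 0.936% of all genes did, and 2 fell, where 2.23% did. The median log2 fold change was -0.25 over the 30 genes and -0.003 over all genes. The labels do not state pairing, but same-numbered SUM159 libraries were taken as paired from their correlations in these data. A fit with a replicate block was therefore also made. In it 2 collagen genes rose (5.77% of all genes) and 12 fell (7.56% of all genes). COL4A1 (adjusted p = 0.00296, edgeR with the block), COL4A2 (adjusted p = 0.00115), COL4A5 (adjusted p = 1.25e-07) and COL4A6 (adjusted p = 2.01e-08) were called in it. Without the block, the COL4A1 call was lost when any of the libraries compared was left out (adjusted p = 0.0635 to 0.206, edgeR) and the COL4A2 call with any but DMSO replicate 3 left out (adjusted p = 0.0534 to 0.143). With the block, both calls were kept whichever library was left out. Without NIF replicate 1, 2 collagen genes were called without the block, with no share of all genes at hand for that fit.

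The other genes called with the block in SUM159 ALDHbr cells, named here after their values were seen, all fell. By size they were COL15A1, a basement membrane multiplexin, the fibrillar chain COL5A3, the transmembrane collagen COL13A1, and COL28A1 and COL6A2 of the beaded filament class, followed by COL5A1, COL12A1, COL1A1, COL8A1 and COL16A1. COL5A3 fell by 1.39 on the log2 scale (adjusted p = 0.000491, edgeR with the block) and COL13A1 by 0.88 (adjusted p = 0.000109), whereas COL8A1 and COL16A1, both among the highest genes of the line, fell by 0.26 (adjusted p = 0.000529) and 0.25 (adjusted p = 0.00127). COL15A1 had 10, 9 and 6 counts under DMSO and 5, 0 and 1 under NIF in these cells, at most 0.289 CPM, with adjusted p = 0.0442 (edgeR with the block). With the block and 1 of the 6 libraries left out at a time, COL15A1 was called in 1 fit, COL28A1 and COL6A2 in 2 and COL1A1 in 3, and the other genes in all 6. COL7A1, with log2 fold changes of -0.04 ± 0.14 (SE), was called in neither fit.

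SUM159 ALDHneg cells gave the same directions for the 4 type IV genes. COL4A1 ran at 67.1, 76.2 and 76.5 CPM under DMSO and 123, 84.1 and 104 CPM under NIF, and COL4A2 at 154, 178 and 167 CPM under DMSO and 235, 187 and 213 CPM under NIF. COL4A5 ran at 74.1, 79.9 and 83.3 CPM under DMSO and 55.3, 59.6 and 62.7 CPM under NIF, and COL4A6 at 99.5, 116 and 103 CPM under DMSO and 63.6, 83.8 and 68.1 CPM under NIF. No NIF library overlapped the DMSO range in any of these genes. COL4A1 rose by 0.5 ± 0.12 (log2, SE, adjusted p = 0.0388, edgeR), COL4A5 fell by 0.42 (SE 0.07, adjusted p = 0.00262) and COL4A6 by 0.56 (SE 0.1, adjusted p = 0.0068). The difference for COL4A2 was 0.35 ± 0.09 with adjusted p = 0.0525 without the block and adjusted p = 0.00345 with it (edgeR).

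COL16A1 ran at 402, 465 and 432 CPM under DMSO and 321, 363 and 346 CPM under NIF in these cells, without overlap, and fell by 0.34 on the log2 scale (SE 0.08, adjusted p = 0.0366, edgeR). In all, 1 of 30 collagen genes rose (1.1% of all genes) and 3 fell (2.2% of all genes) without the block, and 3 rose (6.1%) and 12 fell (7.08%) with it. The remaining gene to rise with the block was COL17A1 (log2 fold change 0.49, adjusted p = 0.0106, edgeR with the block), which in ALDHbr cells had a value of -0.22 ± 0.17 without the block and was called in neither fit. The COL4A1 call without the block was lost with every library but NIF replicate 2 left out in turn (adjusted p = 0.062 to 0.183, edgeR), and the COL16A1 call without NIF replicate 1 or 3 or DMSO replicate 2 or 3 (adjusted p = 0.0721 to 0.159). With NIF replicate 1, NIF replicate 3 or DMSO replicate 3 left out, 2 collagen genes were called, with no share of all genes at hand for those fits. With the block, leaving out NIF replicate 1 gave 7 calls in place of 15, and 6.54% of all genes in place of 13.2%, and the COL4A2 and COL17A1 calls were lost in it.

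**Figure D3:**
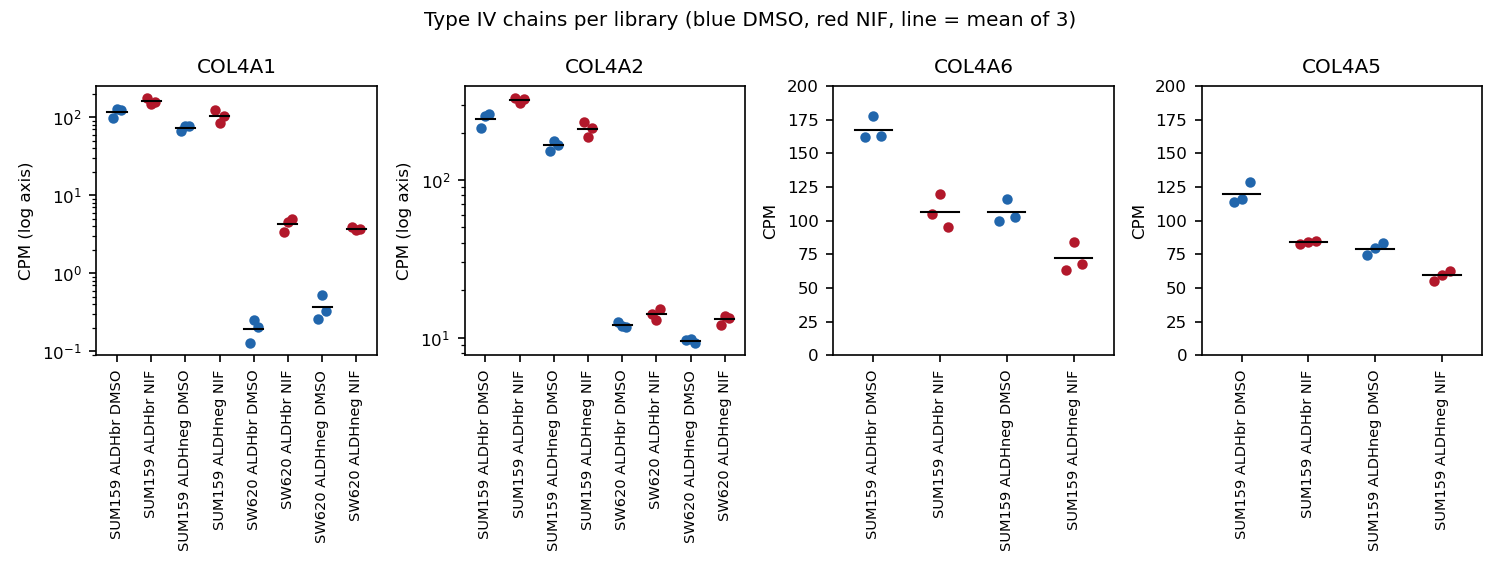
CPM of the type IV genes in each library (points; DMSO blue, NIF red) with the mean of 3 as a line, on a log axis for COL4A1 and COL4A2 in both lines and on a linear axis from 0 for COL4A6 and COL4A5 in SUM159 (1 count each over the 12 SW620 libraries). In SUM159 the NIF points lie above the DMSO points of the same population for COL4A1 and COL4A2 and below them for COL4A6 and COL4A5, and in SW620 COL4A1 rises from 0.128 to 0.525 CPM under DMSO to 3.39 to 4.91 CPM under NIF.

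In SW620 most of the collagen genes tested were called, all but COL27A1 upward. COL4A1 had 5, 8 and 7 counts in the ALDHbr DMSO libraries (0.128, 0.251 and 0.202 CPM) and 115, 134 and 146 counts under NIF (3.39, 4.6 and 4.91 CPM). The fitted log2 fold change was 4.47 ± 0.26 (SE), or 22.1-fold (adjusted p = 1.27e-08, edgeR quasi-likelihood test). In ALDHneg cells it had 10, 19 and 11 counts under DMSO and 135, 133 and 135 counts under NIF, a 9.86-fold rise (log2 fold change 3.3 ± 0.23, adjusted p = 6.17e-08, edgeR). The low DMSO counts limit the precision of both folds.

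COL4A2, which starts 126 bases from COL4A1, rose far less. It ran at 12.6, 11.9 and 11.7 CPM under DMSO and 14.1, 13 and 15.2 CPM under NIF in ALDHbr cells, and at 9.64, 9.84 and 9.24 CPM and 12, 13.7 and 13.4 CPM in ALDHneg cells. The NIF libraries lay above the DMSO libraries in both populations, by 0.22 ± 0.08 (log2, SE, adjusted p = 0.0364, edgeR) and 0.43 ± 0.08 (adjusted p = 0.000493). The level of COL4A1 per unit length relative to COL4A2 was 0.0382 ± 0.0132 (SD, n = 3) in ALDHneg cells under DMSO and 0.283 ± 0.0307 under NIF, with no overlap between libraries, and 0.302 ± 0.058 in ALDHbr cells under NIF. In SUM159 this ratio stayed between 0.421 and 0.52 in all 12 libraries. The ratios are given as a description, without a test.

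COL7A1 was the next to rise. It ran at 1.07, 0.848 and 0.81 CPM under DMSO and 2.48, 2.92 and 3.33 CPM under NIF in ALDHbr cells, without overlap, a 3.15-fold rise (log2 fold change 1.65 ± 0.23, adjusted p = 4.61e-05, edgeR). In ALDHneg cells it ran at 0.883, 0.47 and 0.933 CPM under DMSO and 2.38, 2.2 and 3.06 CPM under NIF, a 3.32-fold rise (1.73 ± 0.23, adjusted p = 3.27e-05). COL6A1, the alpha-1 chain of type VI collagen, ran at 2.35, 1.88 and 1.82 CPM under DMSO and 3.74, 3.6 and 3.9 CPM under NIF in ALDHbr cells. It rose by 0.88 ± 0.14 there (adjusted p = 0.000139, edgeR) and by 1.33 ± 0.17 in ALDHneg cells (adjusted p = 1.59e-05). Its type VI partners had few counts in SW620, at most 8 per library, and were not tested.

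Of the genes with the highest levels in SW620, COL17A1 rose from 208, 255 and 239 CPM to 393, 353 and 318 CPM in ALDHbr cells (0.6 ± 0.08, adjusted p = 3.11e-05, edgeR) and from 351, 333 and 327 CPM to 437, 423 and 439 CPM in ALDHneg cells (0.35 ± 0.08, adjusted p = 0.00217). COL9A3, COL18A1 and COL16A1 rose in both populations as well, with log2 fold changes of 0.22 to 0.68. COL27A1 went the other way. It ran at 29.3, 36.6 and 30.1 CPM under DMSO and 19.2, 19.6 and 14.7 CPM under NIF in ALDHbr cells, and at 26.5, 27.8 and 25.6 CPM and 12.9, 12.8 and 13.8 CPM in ALDHneg cells, without overlap in either. It fell by 0.84 (SE 0.11, adjusted p = 2.18e-05, edgeR) and by 1.02 (SE 0.11, adjusted p = 3.28e-06).

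In all, 9 of the 13 genes tested rose in SW620 ALDHbr cells, where 21.4% of all genes did, and 1 fell, where 21.9% did. In ALDHneg cells 8 of 13 rose (22.3% of all genes) and 1 fell (22.7% of all genes). The median log2 fold change over the 13 genes was 0.54 in ALDHbr and 0.35 in ALDHneg cells, and over all genes -0.007 and -0.008. The gene called in ALDHbr cells alone was COL13A1, with adjusted p = 0.0385 and a log2 fold change of 0.77 ± 0.28 there, and adjusted p = 0.064 with -0.39 ± 0.16 in ALDHneg cells (edgeR). COL1A1, COL5A2 and COL11A2, fibrillar genes with at most 1.34 CPM in any SW620 library, were called in neither. The summed collagen level went from 496.2 ± 22.2 to 701.1 ± 33.7 CPM (SD, n = 3) in ALDHbr cells and from 640.3 ± 34.1 to 798.1 ± 12.03 CPM in ALDHneg cells, with no overlap, and in SUM159 from 3183 ± 185 to 2945 ± 8.86 CPM and from 3518 ± 155 to 3090 ± 96.8 CPM, again with no overlap. CPM are shares of a library, so these sums say nothing of the amount of RNA per cell. Other measures moved with NIF in SW620. ALDH1A1 went from 1340 to 1440 CPM down to 980 to 1040 CPM in ALDHbr cells, and of the colon epithelial markers 2 rose and 4 fell (GPA33 the most, by 1.6 on the log2 scale), with summed levels of 9910 to 11600 CPM under DMSO and 9370 to 10600 CPM under NIF. Of 5 mesenchymal markers tested 1 rose, AXL (1.75 ± 0.09, adjusted p = 4.03e-09, edgeR), and 2 fell, and the sum over all 10 was 490 to 658 CPM under DMSO and 378 to 478 CPM under NIF. In ALDHneg cells the colon epithelial sum was 10100 to 10600 CPM under DMSO and 9290 to 9500 CPM under NIF, and the mesenchymal sum 625 to 639 and 513 to 520 CPM. Their part in the collagen response was not tested.

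**Figure D4:**
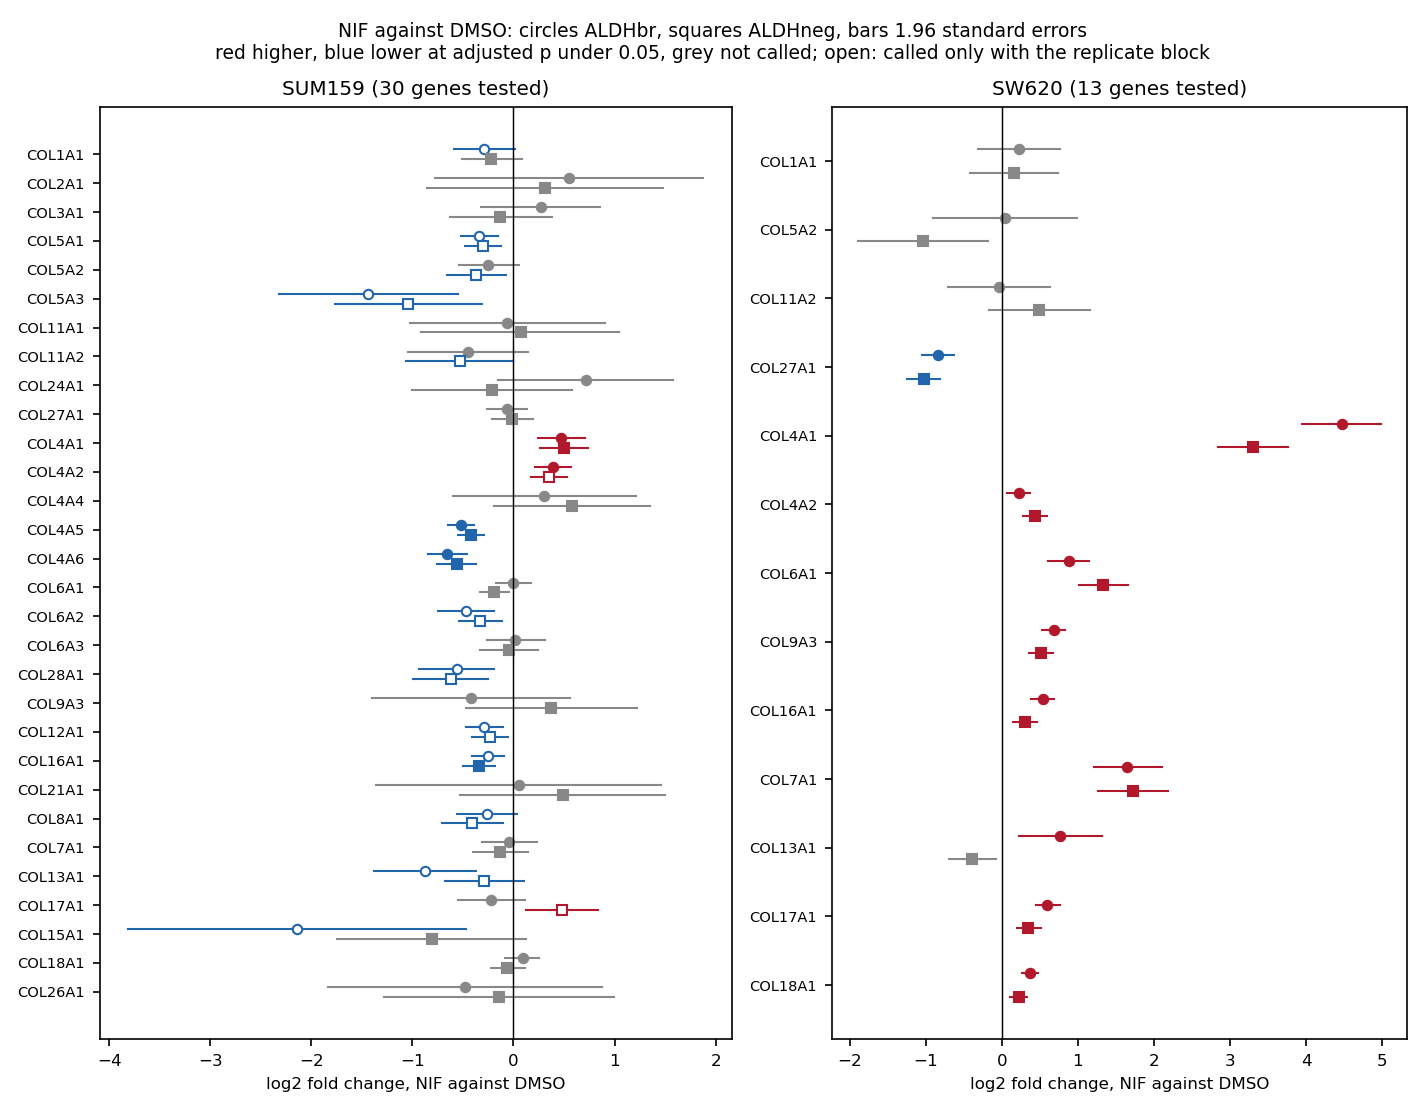
Log2 fold change of NIF against DMSO for each collagen gene tested, with bars for the 95% interval (normal approximation), in SUM159 (left, 30 genes) and SW620 (right, 13 genes), ALDHbr as circles and ALDHneg as squares; red and blue mark genes called higher and lower, and open symbols genes called with the replicate block alone. COL4A1 in SW620 stands apart at 4.47 and 3.3, and, open symbols included, most called genes lie left of 0 in SUM159 and right of 0 in SW620.

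Whether the NIF response differed between lines was tested as an interaction over all 24 libraries, for the 13 genes kept in both lines. In ALDHbr cells 7 of 13 differed, where 23.1% of all genes did, and in ALDHneg cells 5 of 13 differed, where 22.4% did. COL4A1 responded more strongly in SW620, by a log2 difference of 3.99 ± 0.35 (SE) in ALDHbr cells (adjusted p = 1.06e-08, edgeR) and 2.81 ± 0.31 in ALDHneg cells (adjusted p = 2.74e-07). For its partner COL4A2 the difference was -0.17 in ALDHbr cells, with a 95% interval (normal approximation) of -0.42 to 0.07, and 0.09 in ALDHneg cells, with an interval of -0.16 to 0.34. COL7A1, COL6A1 and COL16A1 also had a higher NIF response in SW620 in both populations, and COL27A1 a lower one, while COL17A1 and COL13A1 passed the threshold in ALDHbr cells and not in ALDHneg cells. Without the block, COL16A1 was the gene called with opposite signs in the lines, up in SW620 ALDHneg cells (0.3 ± 0.08, adjusted p = 0.00549, edgeR) and down in SUM159 ALDHneg cells. With the block in SUM159, and without it in SW620, COL16A1 and COL13A1 were also called with opposite signs in ALDHbr cells. Their log2 fold changes in SUM159 were -0.25 (adjusted p = 0.00127, edgeR with the block) and -0.88 (adjusted p = 0.000109). In SW620 they were 0.54 (adjusted p = 9.13e-05, edgeR) and 0.77 (adjusted p = 0.0385).

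Whether the NIF response differed between ALDHbr and ALDHneg cells of a line was tested in the same way. By edgeR's quasi-likelihood test 0 of 30 collagen genes differed in SUM159, where 0 of 14953 genes (0%) did, and 0 of 13 in SW620, where 1 of 13953 genes (0.00717%) did. DESeq2 also called 0 collagen genes in either line. At an unadjusted p under 0.05 there was 1 of 30 in SUM159 (238 of all genes), which was COL17A1 with a log2 difference, ALDHbr minus ALDHneg, of -0.7 (adjusted p = 1, edgeR). With the replicate block 0 of 30 differed (0.0401% of all genes), and COL17A1 passed once ALDHbr NIF replicate 3 was also left out (-0.85, adjusted p = 0.0496, edgeR, with 0.0461% of all genes called). In SW620 there were 3 of 13 (771 of all genes), which were COL13A1 (1.15, adjusted p = 0.552), COL4A1 (1.17, adjusted p = 0.745) and COL17A1 (0.25, adjusted p = 0.9). The 22.1-fold and 9.86-fold rises of COL4A1 are therefore not shown to differ. The 95% interval of that difference ran from 0.32 to 2.01 on the log2 scale.

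The populations themselves were compared under DMSO. In SUM159, 10.7% of all genes were higher in ALDHbr cells and 12.3% were lower. Beside these shares, ALDHneg cells had the higher levels of 5 of 10 fibrillar and 3 of 4 beaded filament genes. ALDHbr cells had the higher levels of 4 of 5 basement membrane network genes and of COL17A1. COL6A2 ran at 6.08, 3.74 and 5.31 CPM in ALDHbr cells and 49.6, 48.7 and 43.9 CPM in ALDHneg cells, and its partner COL6A1 at 7.67, 7.07 and 7.79 CPM and 46.5, 48.6 and 44.2 CPM. Neither overlapped, and the log2 fold changes, ALDHbr against ALDHneg, were -3.23 ± 0.13 (SE, adjusted p = 2.92e-10, edgeR) and -2.63 ± 0.08 (adjusted p = 9.56e-11). COL6A3, another chain of the same trimer, was at 178, 257 and 161 CPM in ALDHbr and 296, 323 and 304 CPM in ALDHneg libraries, which gave a log2 fold change of -0.63 ± 0.15 (adjusted p = 0.00541, edgeR).

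COL13A1 ran at 3.73, 2.97 and 4.25 CPM in ALDHbr cells and 17.5, 16 and 23.2 CPM in ALDHneg cells, without overlap (log2 fold change -2.37 ± 0.22, adjusted p = 1.79e-06, edgeR). Of 10 fibrillar genes tested 5 were lower in ALDHbr cells, among them COL1A1 at 104, 143 and 85.1 CPM against 291, 371 and 284 CPM (-1.51 ± 0.16, adjusted p = 4.48e-06, edgeR) and COL5A1 at 150, 188 and 183 CPM against 348, 398 and 444 CPM (-1.19 ± 0.09, adjusted p = 2.82e-07). COL5A2, which pairs with COL5A1 in type V trimers, was at 13.4, 12.5 and 18.9 CPM against 15.9, 11.8 and 14.1 CPM, with overlapping libraries and a log2 fold change of 0.1 ± 0.15. The level of COL5A1 per unit length relative to COL5A2 was thus 9.68 ± 2.22 (SD, n = 3) in ALDHbr and 23.5 ± 5.09 in ALDHneg cells, without a test. The fibrillar gene that went the other way was COL27A1, higher in ALDHbr cells by 0.39 ± 0.1 (adjusted p = 0.0115, edgeR).

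All 4 type IV genes of the printed pairs were higher in SUM159 ALDHbr cells, by log2 fold changes of 0.56 for COL4A2, 0.6 for COL4A5, 0.65 for COL4A1 and 0.66 for COL4A6 (adjusted p = 8.96e-06 to 0.00132, edgeR), with no overlap between libraries. COL17A1 had the largest difference in this direction. It ran at 25, 27.2 and 21.6 CPM in ALDHbr cells and 8.6, 8.46 and 4.42 CPM in ALDHneg cells, without overlap (1.79 ± 0.18, adjusted p = 3.81e-06, edgeR). In all 6 of 30 collagen genes were higher in ALDHbr cells, where 10.7% of all genes were, and 12 were lower, where 12.3% were. With the replicate block these were 8 (17.9% of all genes) and 13 (18.2%), with COL7A1 and COL8A1 added above and COL16A1 below. Both counts of lower genes include COL15A1, which met the count minimum through ALDHneg libraries. Under DMSO it had 10, 9 and 6 counts in ALDHbr and 55, 29 and 46 counts in ALDHneg cells, so its call is no independent support. The median log2 fold change was -0.63 over the collagen genes and 0 over all genes. The same DMSO libraries serve as the reference for NIF, so the NIF and the population values of a gene are not independent. The mesenchymal markers also differed between these populations: 6 of 10 were lower in ALDHbr cells and 0 higher without the block (6 lower and 1 higher with it), from S100A4 (-4.31 ± 0.19, adjusted p = 9.43e-10, edgeR) to FN1 (-0.36 ± 0.11, adjusted p = 0.0329), and their summed level was 5900 to 6820 CPM against 6870 to 7750 CPM. Their part in the collagen differences was not tested.

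**Figure D5:**
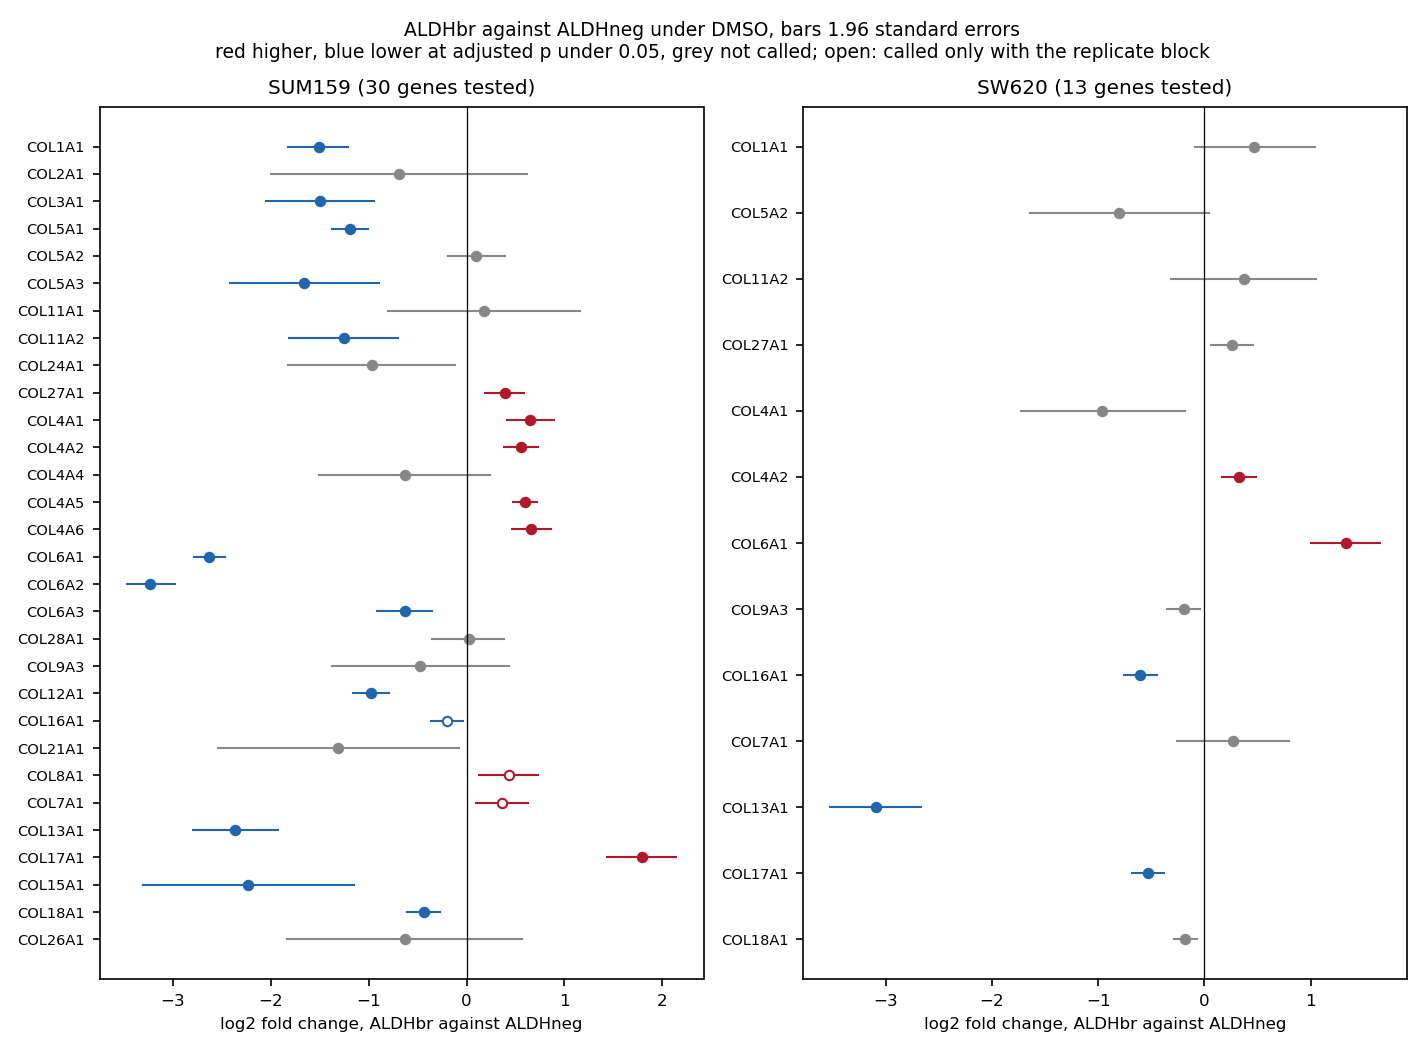
Log2 fold change of ALDHbr against ALDHneg cells under DMSO for each collagen gene tested, with bars for the 95% interval (normal approximation), in SUM159 (left, 30 genes) and SW620 (right, 13 genes); red and blue mark genes called higher and lower in ALDHbr cells, and open symbols genes called with the replicate block alone. COL6A1 lies at -2.63 in SUM159 and at 1.33 in SW620, and COL17A1 at 1.79 and -0.53.

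In SW620 fewer genes separated the populations. COL13A1 ran at 0.281, 0.502 and 0.694 CPM in ALDHbr cells and 4.49, 4.06 and 3.91 CPM in ALDHneg cells, and was lower in ALDHbr cells by a log2 fold change of -3.09 ± 0.22 (adjusted p = 1.45e-06, edgeR). COL6A1, at 2.35, 1.88 and 1.82 CPM against 0.909, 0.774 and 0.722 CPM, was higher by 1.33 ± 0.17 (adjusted p = 0.000185, edgeR), and COL17A1, at 208, 255 and 239 CPM against 351, 333 and 327 CPM, was lower by a log2 fold change of -0.53 ± 0.08 (adjusted p = 0.000723). Libraries of the populations did not overlap in any of these. COL16A1 (-0.61 ± 0.08, adjusted p = 0.000249, edgeR) and COL4A2 (0.33 ± 0.08, adjusted p = 0.0187) completed the 2 genes higher, where 5.45% of all genes were, and the 3 lower, where 5.86% were, of 13 tested. The COL4A2 call was lost without ALDHbr DMSO replicate 1 or ALDHneg DMSO replicate 1 or 3 (adjusted p = 0.0616 to 0.084, edgeR). COL6A1 and COL17A1 thus had opposite signs in the lines, and whether the population difference itself differs between lines was not tested. Of the markers, 3 of 10 colon epithelial genes were higher in SW620 ALDHbr cells, CDX2 the most (1.44 ± 0.23, adjusted p = 0.00134, edgeR), and 2 of 5 mesenchymal genes tested, FN1 and AXL, were lower, and their part was not tested.

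The genes that make, process and bind collagen were described from lists of known roles, outside the collagen genes themselves. Of all genes, 0.936% rose and 2.23% fell in SUM159 ALDHbr cells under NIF without the block, and 5.77% and 7.56% with it. For SUM159 ALDHneg cells these shares were 1.1% and 2.2%, and 6.1% and 7.08% with the block. No list was tested as a set. In SUM159 ALDHbr cells under NIF 0 of 15 genes for hydroxylation and glycosylation of the chains and 0 of 8 for folding and export passed the test without the block, and 2 rose and 1 fell, and 2 rose, with it. Of 7 matrix partner genes tested, DCN (decorin, a proteoglycan that binds collagen fibrils) fell by 1.9 on the log2 scale (SE 0.34, adjusted p = 0.00599, edgeR) and HSPG2 (perlecan, a basement membrane proteoglycan) by 0.62 (SE 0.14, adjusted p = 0.0202). Of 7 collagenases and inhibitors tested MMP1, interstitial collagenase, fell by 3.2 (SE 0.38, adjusted p = 0.000268), from 2.34 ± 0.305 to 0.255 ± 0.175 CPM (SD, n = 3). Of 13 genes of the TGF-beta pathway, a known inducer of collagen genes, 3 fell: TGFBI (-0.46 ± 0.12, adjusted p = 0.0468, edgeR), SMAD3 (-0.36 ± 0.08, adjusted p = 0.0216) and TGFBR2 (-0.24 ± 0.06, adjusted p = 0.0432). With the block 2 of these 13 rose and 4 fell, and 4 of the matrix partner genes fell. Of 7 propeptide removal, 4 crosslinking and 7 receptor genes, 0 were called there without the block. With it 2 propeptide removal genes rose, 1 crosslinking gene rose and 2 fell, and 1 receptor gene fell. In ALDHneg cells without the block P4HA1, a prolyl hydroxylase subunit, rose (0.35), as did TLL1, a protease that removes propeptides (0.4), and MMP1 (-2.57), TGFBI (-0.57), SMAD3 (-0.42) and ITGA11, a collagen receptor subunit (-1.12), fell, with adjusted p from 0.00262 for MMP1 to 0.0482 for P4HA1 (edgeR). With the block 2 TGF-beta pathway genes rose and 4 fell there, 2 hydroxylation and glycosylation genes rose and 2 fell, 2 folding and export and 2 propeptide removal genes rose, and 2 receptor genes and 1 crosslinking gene fell. Of the 7 matrix partner genes 2 fell with the block and 0 were called without it.

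In SW620 ALDHbr cells under NIF, 4 of 13 hydroxylation and glycosylation genes rose and 5 fell, with P4HA2, a prolyl hydroxylase subunit, highest (0.62, adjusted p = 1.37e-05, edgeR) and P3H2, a prolyl 3-hydroxylase, lowest (-0.91, adjusted p = 0.00121). Of 8 folding and export genes 4 rose and 2 fell, from MIA2 at 0.85 (adjusted p = 2.33e-08) to FKBP14 at -0.26 (adjusted p = 0.0378). Both TIMP1 (0.64) and TIMP2 (1.92), inhibitors of matrix proteases, rose among 6 collagenases and inhibitors tested, and LOXL1 and LOXL4, crosslinking enzymes, fell by 0.66 and 0.65 among 3 tested. Of 6 receptors 3 rose, ITGA2 the most (0.7, adjusted p = 0.00684, edgeR), and ITGA1 fell by 0.92 (adjusted p = 6.13e-06). Of 13 TGF-beta pathway genes 5 rose and 3 fell, TGFB2 the most (-0.91, adjusted p = 0.000212, edgeR). Of 4 matrix partner genes tested LAMC1 (0.77) and LAMB1 rose and FN1 (-1.76) and HSPG2 fell, and of 3 propeptide removal genes PCOLCE2 (0.99) and BMP1 rose and PCOLCE (-0.84) fell. Most lists thus held genes in both directions, in a comparison that called 43.3% of all genes. Of all genes 22.3% rose and 22.7% fell in ALDHneg cells. There 4 hydroxylation and glycosylation genes rose and 6 fell, and 4 folding and export genes rose and 2 fell. Of the TGF-beta pathway genes 4 rose and 3 fell there. Between the populations of SUM159 under DMSO, beside 10.7% of all genes higher and 12.3% lower in ALDHbr cells, 2 hydroxylation and glycosylation genes were higher and 4 lower, 2 propeptide removal genes higher and 3 lower, and 2 matrix partner and 2 receptor genes higher and 2 of each lower. Of 13 TGF-beta pathway genes 3 were higher and 2 lower, of 8 folding and export genes 1 was lower, of 7 collagenases and inhibitors 2 were lower, and of 4 crosslinking genes 3 were lower. With the block 17.9% of all genes were higher and 18.2% lower. In that fit 3 folding and export genes were higher and 1 lower, and 5 matrix partner genes were higher and 2 lower. Of hydroxylation and glycosylation genes 3 were higher and 4 lower, and of collagenases and inhibitors 1 was higher and 3 lower. The propeptide removal and receptor counts stayed as without the block. Of the TGF-beta pathway genes 4 were higher and 5 lower, and the crosslinking counts stayed at 0 higher and 3 lower. In SW620, 5.45% of all genes were higher and 5.86% lower in ALDHbr cells. Beside these shares, 2 of 3 crosslinking genes, 2 of 6 receptor genes and 3 of 13 TGF-beta pathway genes were lower. Each of the other lists had 0 or 1 gene lower. Higher were 2 of 13 hydroxylation and glycosylation genes, 1 of 8 folding and export genes and 1 of 13 TGF-beta pathway genes. The other lists had 0 genes higher.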

How the data were processed

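RNA was measured in 24 libraries of sorted SUM159 and SW620 cells, 3 independent experiments for each of 8 groups, prepared with a stranded total RNA kit. Per the deposited table, the authors gave unnormalised read counts for each gene. The submitters' processing notes name FastQC, STAR and GRCh38. The counting tool, annotation and strand setting were not given in the sources used here, so overlapping, antisense and near-identical genes may share reads. All columns of the table were mapped to a sample, and 0 were left unused.

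The collagen genes and the gene lists were chosen with earlier results of these data known. Counts were tested with edgeR 4.0.16 in R 4.3.3 (filterByExpr, TMM scaling, quasi-likelihood test, Benjamini-Hochberg adjusted p under 0.05 over all genes tested). NIF and population comparisons were fitted per line, in 12 libraries and 4 groups, and line and NIF-by-line comparisons in all 24. Standard errors were the log2 fold change divided by the square root of F. CPM were scaled by TMM over all 24 libraries, and levels per kb used MANE Select lengths (GENCODE v44, lifted to GRCh37). Scripts were tested on simulated data. Genes named were the 6 with the highest mean CPM per line, the 3 highest and 3 lowest called per comparison with a mean of at least 0.5 CPM, those called in an interaction and, per pathway list, the highest and lowest called under NIF in ALDHbr cells. Other genes were named after their values were seen, and 1 gene that this rule names is not reported here.

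Replicates of a group differed beyond sampling noise (chi-square per gene 1.95 to 43.1 over 24 pairs). Same-numbered SUM159 libraries deviated from their group means together in 18 of 18 pairs (correlations 0.125 to 0.451) and were taken as paired. In SW620 1 of 18 pairs passed 0.1. The alternatives were DESeq2 1.42.0, RLE and library-size scaling, other count filters, a replicate block, other sets of libraries in the fit, and leaving out each library.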

Additional observations from a re-analysis of the deposited data

Results flagged for a closer look

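The response to NIF differed between the lines, by a test of the difference itself (SW620 minus SUM159, edgeR quasi-likelihood interaction test over 24 libraries), for these collagen genes among the 13 kept in both lines. In ALDHbr cells the log2 differences were 3.99 for COL4A1 (adjusted p = 1.06e-08), 1.69 for COL7A1 (adjusted p = 0.000262), 1.64 for COL13A1 (adjusted p = 0.00882), 0.88 for COL6A1 (adjusted p = 0.000122), 0.82 for COL17A1 (adjusted p = 0.00239) and 0.79 for COL16A1 (adjusted p = 3.03e-05). COL27A1 differed the other way, by -0.78 (adjusted p = 0.000583). In ALDHneg cells they were 2.81 for COL4A1 (adjusted p = 2.74e-07), 1.87 for COL7A1 (adjusted p = 0.000103), 1.53 for COL6A1 (adjusted p = 3.39e-07) and 0.65 for COL16A1 (adjusted p = 0.000229), and -1.01 for COL27A1 (adjusted p = 3.33e-05).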

How the results depend on the processing

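Of 590 recomputed values of single genes under the other settings, 563 kept their direction and their side of the threshold, 27 kept the direction but lost the call, and 0 reversed. Of the 27 lost calls, 12 were for NIF in SUM159 ALDHbr cells, 11 for NIF in SUM159 ALDHneg cells and 4 for population in SW620. The collagen genes called for NIF in SUM159 ALDHbr cells (4 as reported) became 7 with DESeq2, 8 with no filter on low counts, 7 in a fit of all 24 libraries and 14 with the replicate block. Those for NIF in SUM159 ALDHneg cells (4 as reported) became 7 with no filter and 15 with the replicate block. The share of all genes called rose with the block too, from 3.16% to 13.3% in ALDHbr and from 3.3% to 13.2% in ALDHneg cells. That share is given below for block fits without 1 library. It was not at hand for the remaining settings, so their counts are not read as a result about collagen genes. Leaving out 1 library at a time gave 2 to 4 calls in ALDHbr cells and 2 to 5 in ALDHneg cells, and with the replicate block, an alternative chosen after seeing the data, 11 to 12 and 7 to 15 (13 without DMSO replicate 2). The block fits without 1 library called 7.23% to 9.75% of all genes in ALDHbr cells and 6.54% to 12.4% in ALDHneg cells. In these block fits the 84 values of genes named by the rule kept their side of the threshold. Of the 14 and 15 genes called with the block, 11 to 12 and 7 to 14 were called again. With the block and without ALDHbr NIF replicate 3, 1 collagen gene, COL17A1, differed in the NIF-by-population test in SUM159 (-0.85, adjusted p = 0.0496, edgeR; 0 genes as reported). The line comparison called 10 of 10 genes where at least 10 counts were required in every library (30 as reported), since fewer genes were tested. The cause of the other changes was not tested. In SW620 1 of 18 same-numbered pairs had a correlation over 0.1, so pairing was not shown there and is not excluded. Same-numbered pairs ran from -0.278 to 0.214 there, and differently numbered pairs from -0.41 to 0.394. A block by number would not remove variation shared by libraries of different numbers. There the block gave 8, 9 and 5 calls for NIF in ALDHbr cells, NIF in ALDHneg cells and population, against 10, 9 and 5. Low counts limit the SW620 values of COL4A1 under DMSO.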
